A study of Mus musculus with 2 samples.

Results

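Collagen gene transcripts were compared between denervated and control mouse gastrocnemius, the large calf muscle. The members were the 41 gene names on the array that read Col followed by a digit, of 21597 gene names in all, and they were carried by 84 of 41174 probes. Of these names, Col4a3bp encodes a ceramide transfer protein named after the collagen chain it was described as binding, so 40 collagen genes remained. They comprised 11 fibrillar genes, all 6 chains of basement membrane collagen (Col4), 3 chains of type VI collagen (Col6) and 20 genes of other types.

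Both groups were male C57BL/6 mice, and the denervated muscles had been without their nerve for 14 days. The animals were 7 weeks old at the start and 9 weeks old at sampling. How the nerve was interrupted is not given in the sources used here. The control is labelled as a sham control in its title and only as a control elsewhere. Muscle RNA of 6 mice was pooled for each group and hybridised to 1 Agilent 1-colour array, so there is no replicate and no test, and each value describes 2 pools. Both arrays were on 1 slide, and the effect of slide position cannot be told apart from that of the group. In whole muscle, fewer cells of a type and less RNA per cell cannot be told apart.

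Collagens are triple helices of alpha chains that give connective tissue its strength. In muscle, fibroblasts lay down fibrils of types I, III and V in the layers around fibres and bundles, type IV forms the sheet-like network of the basement membrane that encloses each fibre and capillary, and type VI forms beaded filaments that link this sheet to the fibrils. The other types coat fibrils, span membranes, or sit at special sites such as the tendon end of the fibre.

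Signals are given on a scale on which each array's 75th percentile over all probes is 100. Each gene took the probe with the highest mean log2 signal over both arrays, among those well above background on both. Differences are log2 of denervated over control, and the value after ± is the scanner software's own error, which is technical only. Each signal belongs to its own probe, so signals of different genes are not set against each other. All 8 muscle fibre markers were measured on both arrays, among them the creatine kinase gene Ckm, at 39011 in control muscle and 23662 in denervated muscle.

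The collagens as a set lay close to the whole array, while single members differed by more than 2-fold in both directions. Of the 40 genes, 37 were measured on both arrays, against 71.3% of all named genes. At least 2-fold higher in denervated muscle were 3 of the 37 (8.11%), against 6.92% of 15402 measured genes, and at least 2-fold lower were 3 (8.11%), against 8.62%. These shares are near the background. The higher genes were Col19a1, Col18a1 and Col23a1, and the lower genes Col22a1, Col4a3 and Col9a3. The median difference was -0.13, against -0.11 over all measured genes. Above 0 were 14 of the 37 (37.8%), against 42.7% of all genes. Of the 37 differences, 27 were larger than their technical error and 16 larger than 2 times that error. The same counts were not taken over all genes, so they do not set the collagens apart.

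The level of 0 itself depends on scaling. Scaling to the 9 spike-in control probes moved every gene up by 0.40 and leaving the arrays unscaled moved it by 0.43. The spike-in probes themselves ranged from -0.01 to 0.68 in log2 denervated over control. With spike-in scaling 27 of the 37 collagens lay above 0, against 67.6% of all measured genes. At least 2-fold higher were then 7, against 14.4%, and at least 2-fold lower 1, against 4.21%. The median of all genes was then 0.28 and that of the collagens 0.26. A difference between 2 genes or classes is not altered by such a shift.

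**Figure D1:**
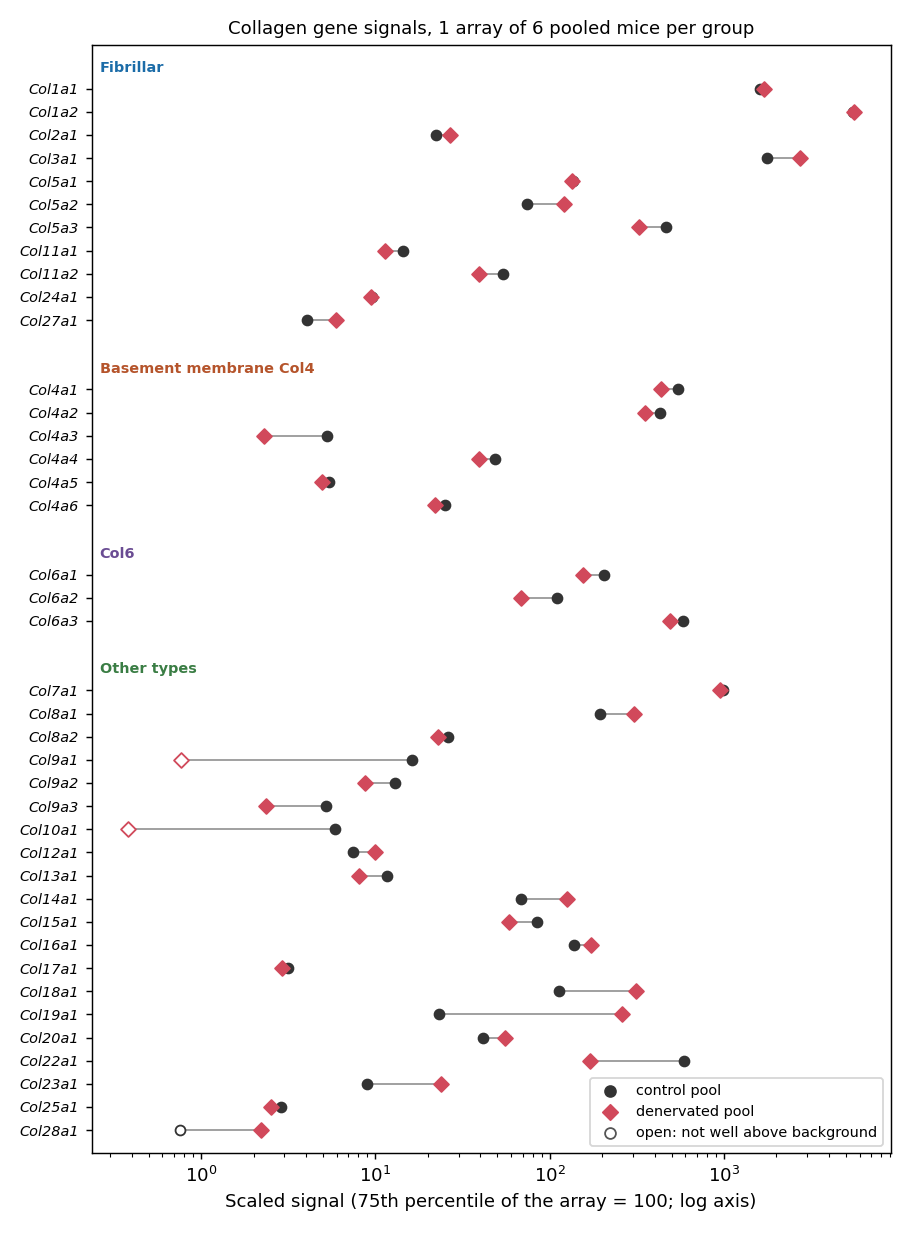
Signal of each collagen gene for control (circles) and denervated muscle (diamonds), on a log axis where 100 is the array's 75th percentile; open symbols were not well above background. Col19a1 shows the widest gap among genes measured on both arrays, from 23.1 to 260.5, while Col9a1 and Col10a1 have open symbols in denervated muscle.

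The fibrillar collagens had a median difference of 0.02, with 6 of 11 above 0 (54.5%, against 42.7% of all measured genes). None was past 2-fold, against 6.92% of all measured genes upward and 8.62% downward. The chains of type I collagen, the main fibril of muscle connective tissue and tendon, had nearly the same signal on both arrays. Col1a1 was at 1606 in control muscle and 1697 in denervated muscle (0.08 ± 0.20), and Col1a2 at 5514 and 5582 (0.02 ± 0.20). The brightest Col1a1 probe (transcript NM_007742, chromosome 11 at 94767851 to 94767910, mm8) was printed 10 times. Its 10 spots ran from 1509 to 1668 with a median of 1621 in control muscle, and from 1620 to 1762 with a median of 1695 in denervated muscle. The spot ranges overlapped, and the difference at single positions lay between 0.05 and 0.13. The other Col1a1 probes gave 0.09 and 0.11, so all probes of this gene stood together.

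Col3a1 and Col5a2 had the highest differences of the fibrillar class. Col3a1, the chain of type III collagen, which forms thin fibrils in soft tissue, was at 1765 in control muscle and 2740 in denervated muscle (0.63 ± 0.20, with its other probes at 0.42 and 0.37). Col5a2, a chain of the type V collagen that starts and thins fibrils, was at 74.5 and 121 (0.70 ± 0.20). These genes are direct neighbours on chromosome 1 in the RefSeq annotation of GRCm38.p6. With spike-in scaling their differences were 1.03 and 1.10, which puts both past 2-fold.

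The other type V chains had lower differences than Col5a2. Col5a1 was at 136 in control muscle and 133 in denervated muscle (-0.03 ± 0.20), and its second probe stood at -0.71. Col5a3 was at 462 and 326 (-0.50 ± 0.20), with a dimmer probe at 0.03. The chains of type V collagen thus lay on both sides of 0, with Col5a2 the highest and Col5a3 the lowest of the whole fibrillar class.

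The fibrillar genes best known from cartilage had small differences in both directions. Col11a1 was at 14.3 in control muscle and 11.3 in denervated muscle (-0.34 ± 0.21), and Col11a2 at 54.1 and 39.4 (-0.46 ± 0.21). Col27a1 was at 4.05 and 5.96 (0.56 ± 0.29), and its 3 probes stood at 0.56 to 0.70, although with normexp background correction it stood at -0.10. Col2a1, the main collagen of cartilage, was at 22.3 and 26.8 (0.26 ± 0.21). Of the 10 spots of that Col2a1 probe, 9 were usable in control muscle, where they ran from 17.8 to 27.0 with a median of 24.2, and 8 in denervated muscle, where they ran from 21.9 to 31.2 with a median of 27.9. These ranges overlapped, and a second Col2a1 probe that shares 40 genome bases with the first pointed the other way at -0.53. Of the cartilage markers on the array, Matn1 and Hapln1 were not well above background on either array and Matn3 was so in denervated muscle only, while Acan and Snorc were not named on the array. The transcription factor gene Sox9, the only cartilage marker measured on both arrays, stood at 1.68 ± 0.21.

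The probes of Col24a1, a minor fibrillar collagen, disagreed. The probe used here (chromosome 3 at 145252634 to 145252693, mm8) was at 9.61 in control muscle and 9.47 in denervated muscle (-0.02 ± 0.22). The other probe (145488895 to 145488954), at 36.5 in control muscle, was not well above background in denervated muscle at 1.86. The ratio of these signals was 19.6. It is not a lower limit, because the dim signal lay above that array's lowest detected signal (1.68). Only the first probe met the condition of being measured on both arrays. Whether Col24a1 differed, and by how much, thus rests on which probe is read.

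Promoter windows from RefSeq (build GRCm38.p6), from 250 bases before to 50 after a gene's annotated start, are shown for Col1a2, whose difference was near 0, and Col3a1, which had one of the higher fibrillar differences. Capitals mark matches on either strand to 4 motifs. The TATA box was searched as TATAAA and the CCAAT box by the letters of its name. The GC box, which the factor Sp1 can bind, was searched as GGGCGG. The E box, which myogenic factors can bind, was searched as CAGCTG.
Col1a2, chr6:4505368-4505667, plus strand: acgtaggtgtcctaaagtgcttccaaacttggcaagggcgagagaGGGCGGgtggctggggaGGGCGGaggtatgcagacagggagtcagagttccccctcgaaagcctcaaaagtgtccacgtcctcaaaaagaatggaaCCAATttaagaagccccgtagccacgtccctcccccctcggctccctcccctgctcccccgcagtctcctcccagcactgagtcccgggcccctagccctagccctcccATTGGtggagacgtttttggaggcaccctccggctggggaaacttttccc
Col3a1, chr1:45311288-45311587, plus strand: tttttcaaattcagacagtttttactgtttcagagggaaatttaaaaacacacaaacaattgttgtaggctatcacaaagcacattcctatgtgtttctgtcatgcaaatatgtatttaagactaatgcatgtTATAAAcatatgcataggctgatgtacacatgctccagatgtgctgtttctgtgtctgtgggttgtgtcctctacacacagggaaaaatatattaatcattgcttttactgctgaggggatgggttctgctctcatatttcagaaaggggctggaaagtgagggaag
The Col1a2 window held 2 CCAAT boxes and 2 GC boxes and was 61% G and C. The Col3a1 window was 37.7% G and C and held 1 TATA box, with none of the other motifs. Over all 32851 windows, 13.6% held a TATA box, 37.4% a CCAAT box, 35.7% a GC box and 16.3% an E box, with overlapping matches each counted. Of the 35 windows listed for 32 of the collagen genes, 5, 12, 20 and 6 held them in that order, against the shares just given. These matches are a description of the letters only.

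**Figure D2:**
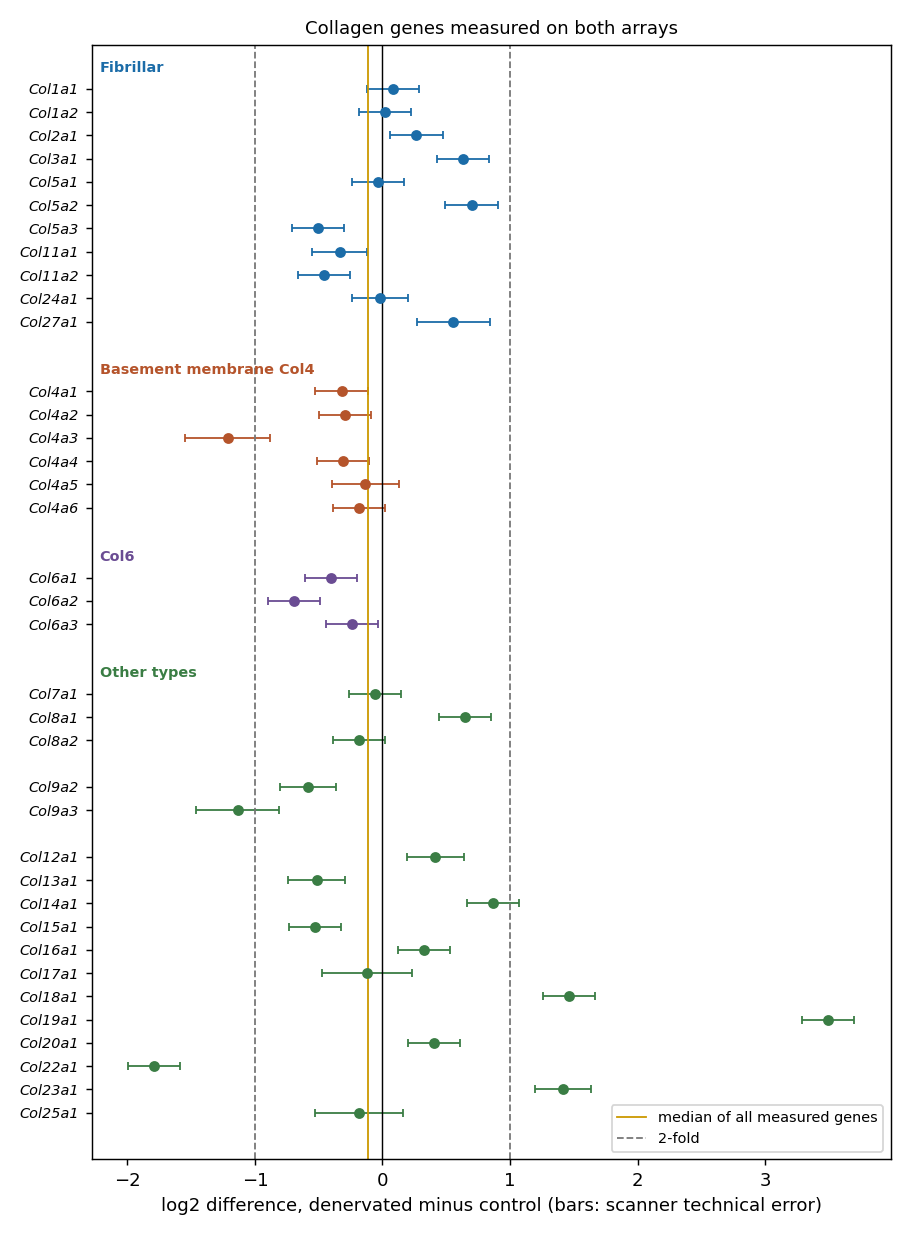
Log2 difference of the 37 collagen genes measured on both arrays, with the scanner software's technical error as bars, 2-fold as dashed lines and the median of all measured genes (-0.11) as a coloured line. The 6 Col4 and 3 Col6 genes lie left of 0 at this scaling, and the genes past 2-fold are Col18a1, Col19a1 and Col23a1 on the right and Col4a3, Col9a3 and Col22a1 on the left.

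All 6 basement membrane Col4 genes were below 0, as were 8825 of 15402 measured genes. Their median was -0.30, against -0.11 over all measured genes. Col4a5 and Col4a6 were within their technical error. Once scaled to the spike-ins the Col4 median was 0.10, against 0.28 over all genes, and only Col4a3 was below 0. Col4a1 and Col4a2 encode the chains found in nearly every basement membrane. Col4a1 was at 541 in control muscle and 433 in denervated muscle (-0.32 ± 0.20), with its second probe at 0.01. Col4a2 was at 429 and 350 (-0.29 ± 0.20), with its second probe at -0.20. With spike-in scaling these chains stood at 0.08 and 0.10.

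Col4a1 and Col4a2 lie head to head, and their windows are printed because they are transcribed in opposite directions from nearly the same place and had nearly the same difference. The annotated starts are 21 bases apart and the windows share 78 bases.
Col4a1, chr8:11312777-11313076, minus strand: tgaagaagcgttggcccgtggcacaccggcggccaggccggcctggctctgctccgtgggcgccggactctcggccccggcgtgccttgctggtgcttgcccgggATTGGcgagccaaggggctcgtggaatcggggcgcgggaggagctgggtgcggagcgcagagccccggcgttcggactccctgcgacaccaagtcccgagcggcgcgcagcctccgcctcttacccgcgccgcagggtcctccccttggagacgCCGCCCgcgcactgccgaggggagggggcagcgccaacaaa
Col4a2, chr8:11312555-11312854, plus strand: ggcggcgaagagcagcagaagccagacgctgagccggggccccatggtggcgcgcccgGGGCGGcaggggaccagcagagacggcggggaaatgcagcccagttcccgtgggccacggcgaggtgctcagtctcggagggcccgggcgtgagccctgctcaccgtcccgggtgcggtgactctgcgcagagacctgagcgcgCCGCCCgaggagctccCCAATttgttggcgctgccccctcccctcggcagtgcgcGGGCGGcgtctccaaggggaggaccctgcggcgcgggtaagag
These windows were 74% and 73.7% G and C, against a median of 52.7% over all windows, and neither held a TATA box or an E box. The Col4a1 window held 1 CCAAT box and 1 GC box and the Col4a2 window 1 and 3, both strands counted.

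The remaining chains occur in more specialised basement membranes such as that of the kidney filter. Col4a3 was at 5.31 in control muscle and 2.29 in denervated muscle (-1.21 ± 0.33), and its neighbour Col4a4 at 48.7 and 39.3 (-0.31 ± 0.20). Col4a3 was the only Col4 gene past 2-fold, and both its signals were near the lowest detected signal, which was 1.84 for control and 1.68 for denervated muscle. With spike-in scaling it stood at -0.82 and with normexp background correction at -0.75. A second Col4a3 probe was well above background in control muscle only, which bounds it at least 2.40-fold higher there. On the X chromosome, Col4a5 was at 5.39 and 4.91 (-0.13 ± 0.26) and Col4a6 at 25.1 and 22.1 (-0.18 ± 0.21), where another Col4a6 probe stood at -0.85.

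The 3 Col6 genes were also all below 0, with a median of -0.40, against -0.11 over all measured genes. Once scaled to the spike-ins the Col6 median was -0.01, against 0.28 over all genes, and Col6a3 stood above 0. Type VI collagen surrounds muscle fibres, and loss of its chains causes inherited muscle disease. Col6a1 was at 204 in control muscle and 154 in denervated muscle (-0.40 ± 0.20). Col6a2 was at 111 and 68.5 (-0.69 ± 0.20, with a second probe at -0.85), and Col6a3 at 579 and 492 (-0.24 ± 0.20, with a second probe at -0.29). Col6a2 was the lowest of the class and, unlike Col6a3, stayed below 0 under every scaling tried. Col6a1 and Col6a2 are neighbours on chromosome 10.

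The difference between classes does not move with scaling by a constant. The fibrillar median was 0.32 above the Col4 median and 0.42 above the Col6 median. Across all 13 processing settings, the one reported included, the fibrillar median lay above the median of all genes and the Col4 and Col6 medians below it. Of these settings, 3 shift every gene alike and could not change that order. Without the filter on dim probes, with non-uniform and outlier spots kept, or with updated symbols, the fibrillar minus Col4 difference stayed at 0.32. With the deposited table, which is proportional to the same intensities, it was 0.31. The 13 settings are therefore not separate checks of the order. The fibrillar margin over all genes was 0.13 as reported. It ran from 0.02, when the probes of each gene were averaged, to 0.18. It thus stayed inside 0.20, the median technical error of a gene, in every setting. The Col4 margin was -0.19 as reported, also inside 0.20, and ran from -0.24 to -0.11. The Col6 margin was -0.29 as reported and ran from -0.36 to -0.19. With 3 to 11 genes a class and 1 array a group, this is a description of these pools.

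**Figure D3:**
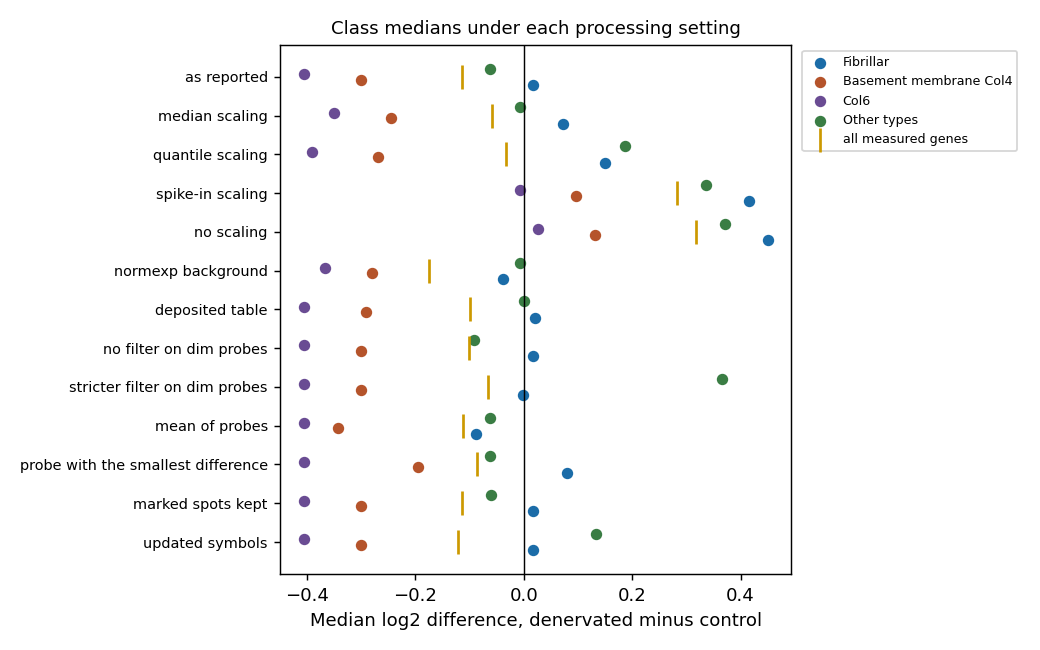
Median log2 difference of each collagen class and of all measured genes under the reported processing and 12 alternatives. Spike-in scaling and no scaling move all medians to the right, and in each row the Col4 and Col6 medians lie left of the all-gene mark while the fibrillar median lies right of it.

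Among the other 20 genes, 17 were measured. Of these, 3 were past 2-fold upward (17.6%, against 6.92% of all measured genes) and 2 downward (11.8%, against 8.62%). The median of the 17 was -0.06, or 0.34 once scaled to the spike-ins. The fibril-associated collagens, which have interrupted helices and mostly decorate fibrils or basement membranes, held both extremes. Col19a1, a minor collagen of basement membrane zones that is expressed in developing muscle, was at 23.1 in control muscle and 260.5 in denervated muscle (3.49 ± 0.21, 11.3-fold; transcript NM_007733, chromosome 1 at 24218751 to 24218810, mm8). Its other measured probes went from 4.32 to 39.1 (3.18 ± 0.24) and from 3.97 to 28.1 (2.83 ± 0.25). The remaining probe, built on another transcript, was not well above background on either array. All 3 measured probes were thus at least 7.09-fold higher, and Col19a1 stayed between 2.83 and 3.92 under the 12 alternatives.

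Col22a1, a collagen of the junction between muscle fibre and tendon, had the opposite direction. It was at 587 in control muscle and 170 in denervated muscle (-1.79 ± 0.20, 3.46-fold lower; chromosome 15 at 71627443 to 71627502, mm8). Its second probe stood at -0.98 ± 0.21, just inside 2-fold. Beside it, 3 of the 5 tendon markers were below 0 (median -0.21, or 0.19 with spike-in scaling, when 2 were below 0). Their summed signals were 3744 and 9232, but 3128 and 2358 without the tendon transcription factor gene Scx. Of the latter sums, Thbs4 gave 2704 and 1753 (-0.63 by the probe used, but 0.33 by its other measured probe). The Scx probe was at 616 in control muscle and 6874 in denervated muscle (3.48 ± 0.20), and what it hybridised to was not tested. The tenomodulin gene Tnmd (-0.76 ± 0.21) and Comp (0.67 ± 0.20) had the next largest differences, and all 5 tendon markers were above background. The part of tendon tissue in the Col22a1 value was not tested.

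Col14a1 and Col12a1 encode collagens that bind to the surface of type I fibrils. Col14a1 was at 68.9 in control muscle and 126 in denervated muscle (0.87 ± 0.20, or 1.27 with spike-in scaling). Col12a1 was at 7.46 and 9.94 (0.41 ± 0.22), with a dimmer probe at 1.02. Both had higher signals in denervated muscle by each probe measured, but Col12a1 stood at -0.01 with normexp background correction. Col16a1, found in dense connective tissue, was at 138 and 173 (0.33 ± 0.20), and Col20a1 at 41.7 and 55.2 (0.41 ± 0.20).

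Type IX collagen coats the fibrils of cartilage, and its 3 chains all had lower signals in denervated muscle. Col9a2 was at 13.0 in control muscle and 8.68 in denervated muscle (-0.58 ± 0.22), and Col9a3 at 5.18 and 2.36 (-1.14 ± 0.33). Col9a3 was past 2-fold near the detection level, and with spike-in scaling it stood at -0.74. Col9a1 was well above background in control muscle only, at 16.2 against 0.763, and was at least 9.62-fold higher there. Its probe (24206120 to 24206179 on chromosome 1, mm8) lies beside those of Col19a1, the next gene in the RefSeq annotation, which had the opposite direction.

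The multiplexins, basement membrane collagens that carry sugar chains and release anti-angiogenic fragments, differed from each other. Col18a1, the source of endostatin, was at 114 in control muscle and 314 in denervated muscle (1.46 ± 0.20, 2.76-fold), with its second probe in the same direction (34.9 and 106). Col15a1, which lies in the basement membranes of muscle fibres and capillaries, was at 84.1 and 58.3 (-0.53 ± 0.20), with its second probe at -0.72. Both probes of each gene gave the same direction, and with spike-in scaling these genes stood at 1.86 and -0.13.

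The transmembrane collagens sit in the cell surface with their collagen domain outside. Col23a1 was at 8.96 in control muscle and 23.9 in denervated muscle (1.42 ± 0.22, 2.67-fold), and its other measured probe went from 6.77 to 29.4 (2.12 ± 0.22). Col13a1, which fibres deposit at the neuromuscular junction and which helps it mature, was at 11.6 and 8.10 (-0.52 ± 0.22). Col25a1, required in developing muscle for motor axons to enter, was at 2.88 and 2.53 (-0.18 ± 0.34), within its technical error. Col17a1, a hemidesmosome protein of skin, was at 3.15 and 2.90 (-0.12 ± 0.35), also within its error.

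Windows are printed for Col19a1 and Col23a1, which were among the genes past 2-fold, with capitals marking the same motifs.
Col19a1, chr1:24587388-24587687, minus strand: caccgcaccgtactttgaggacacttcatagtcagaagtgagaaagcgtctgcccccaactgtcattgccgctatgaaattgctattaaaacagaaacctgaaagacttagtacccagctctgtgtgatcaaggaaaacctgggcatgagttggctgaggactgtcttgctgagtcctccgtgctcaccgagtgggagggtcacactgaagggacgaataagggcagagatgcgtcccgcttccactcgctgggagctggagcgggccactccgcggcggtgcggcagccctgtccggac
Col23a1, chr11:51289670-51289969, plus strand: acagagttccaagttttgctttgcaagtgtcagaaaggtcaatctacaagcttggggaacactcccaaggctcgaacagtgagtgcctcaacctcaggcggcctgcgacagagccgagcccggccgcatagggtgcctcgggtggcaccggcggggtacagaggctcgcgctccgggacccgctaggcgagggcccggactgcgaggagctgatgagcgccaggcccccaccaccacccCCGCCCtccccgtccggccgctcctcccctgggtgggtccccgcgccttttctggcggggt
The Col19a1 window held no match to the 4 motifs, and the Col23a1 window held 1 GC box. A missing match says only that these letters are not in these 300 bases.

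The short-chain network collagens and the remaining types completed the set. Col8a1, found in vessel walls, was at 194 in control muscle and 303 in denervated muscle (0.64 ± 0.20, or 1.04 with spike-in scaling), with its second probe at 0.80. Col8a2 was at 26.1 and 23.0 (-0.18 ± 0.21). Col7a1, which forms the anchoring fibrils of skin, was at 993 and 951 (-0.06 ± 0.20). Col10a1, a marker of hypertrophic cartilage, was well above background in control muscle only, at 5.86 against 0.381, and was at least 3.48-fold higher there. Col28a1, a collagen known from peripheral nerve, was well above background in denervated muscle only, at 2.22 against 0.760, which bounds it at least 1.21-fold higher. Of 40 collagens, 2 were thus seen in control muscle only and 1 in denervated muscle only, against 4.57% and 1.95% of all named genes.

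**Figure D4:**
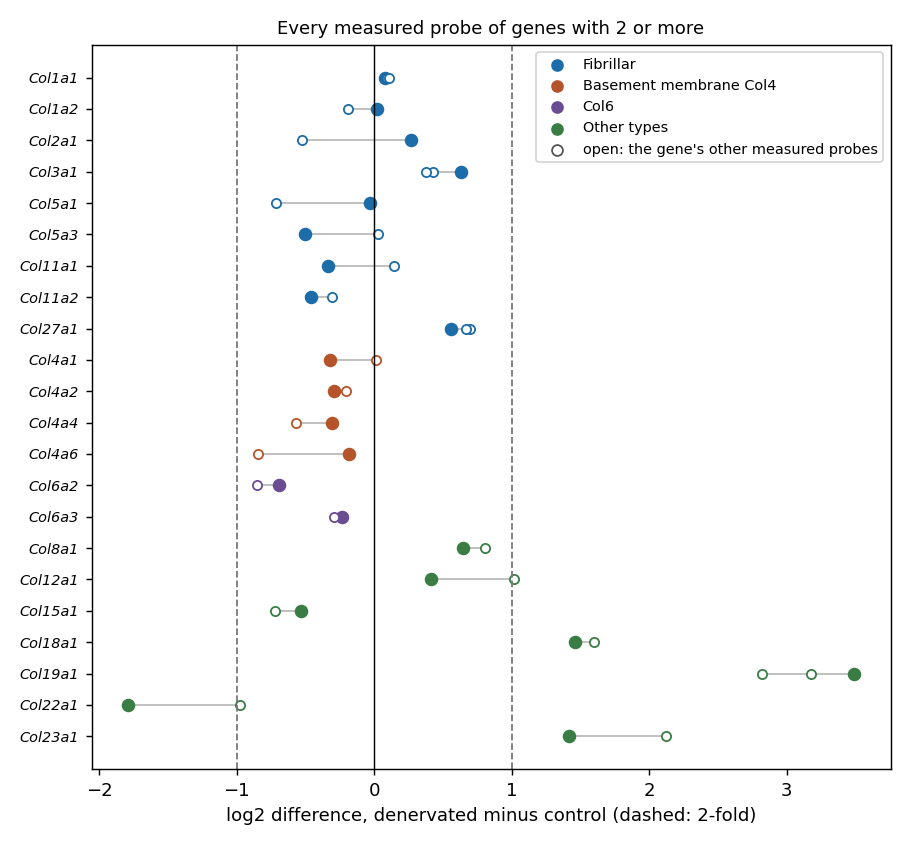
Log2 difference of every measured probe for the 22 collagen genes with at least 2 measured probes; filled points are the probe used and open points the gene's others, with 2-fold as dashed lines. The probes of 17 genes lie on one side of 0, and the 3 Col19a1 probes all lie at 2.83 or more.

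A second measured probe was available for 22 of the 37 genes. For 17 of these genes all probes had 1 sign and for 14 they lay within 0.5 of each other. The largest spread within a gene was 0.81, at Col22a1. The genes whose probes lay on both sides of 0 were Col1a2, Col2a1, Col5a3, Col11a1 and Col4a1, none of which was past 2-fold by any measured probe.

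Other genes of the collagen pathway were read from lists. Of 16 measured genes for chain synthesis and folding, 2 were at least 2-fold higher and none lower (median 0.05, or 0.44 with spike-in scaling). Plod2, the lysyl hydroxylase that modifies the chain ends for cross-links, was at 8.84 in control muscle and 25.1 in denervated muscle. P4hb, a subunit of prolyl 4-hydroxylase and a general disulfide isomerase, was at 855 and 1961, and the prolyl hydroxylase gene P4ha2 was at 615 and 395 (-0.64 ± 0.20). P4ha3 was not well above background on either array. The collagen chaperone Serpinh1 had the same signal within its error (592 and 580, -0.03 ± 0.20).

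Of 11 measured genes for processing and cross-linking, 1 was at least 2-fold higher and 1 lower (median -0.29, or 0.10 with spike-in scaling). The cross-linking enzyme gene Lox stood at 2.03 ± 0.21, its relative Loxl1 at 0.86 ± 0.20 and the procollagen peptidase gene Adamts3 at -1.39 ± 0.29, while Tll1 was not above background on either array. Of 13 fibril-associated matrix genes, 2 were at least 2-fold higher, periostin (Postn, 1.66 ± 0.20) and the proteoglycan lumican (Lum, 1.03 ± 0.20), and none lower (median 0.09, or 0.48 with spike-in scaling). The matrix protein gene Thbs2 had the next largest difference at 0.62 ± 0.21.

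Of 7 measured collagen receptors, 1 was past 2-fold upward by the probe used, namely the integrin beta subunit Itgb1 at 1.11 ± 0.20. None was past 2-fold downward by the probe used (median 0.20, or 0.60 once scaled to the spike-ins). The median was the value of Mrc2, whose 3 measured probes ran from -2.66 to 0.20. Lair1 stood at 0.84 ± 0.22 and the receptor kinase Ddr1 at 0.75 ± 0.20, while Itga2, Itga10 and Gp6 were not above background. Of 7 measured genes of collagen breakdown, 1 was at least 2-fold higher and 1 lower. The protease inhibitor Timp1 stood at 3.48 ± 0.20, Timp3 was 2-fold lower, at 3268 in control and 1632 in denervated muscle, while the membrane protease Mmp14 stood at 0.52 ± 0.20 (list median 0.22, or 0.62 with spike-in scaling). The interstitial collagenase Mmp13 was not well above background on either array. Against these lists, 6.92% of all genes were at least 2-fold higher.

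Markers of the cells that make collagens are given beside these values. Of 11 fibroblast markers, all measured, none was at least 2-fold higher and 1 was lower, against 6.92% and 8.62% of all measured genes. Above 0 were 5 of these markers and below it 6. Their median (-0.20, or 0.19 with spike-in scaling) was the value of Tcf4. That gene may not mark fibroblasts in this muscle, which was not tested, so the median and counts of this list are uncertain. The summed signal of the list was 21117 in control muscle and 16438 in denervated muscle, but 7333 and 7389 without Gsn. Clec3b (-1.04 ± 0.20), Cxcl12 (-0.86 ± 0.20) and Vim (0.78 ± 0.20) had the largest differences. The 8 endothelial markers had a summed signal of 3334 and 2008, all below 0 (median -0.65, or -0.25 with spike-in scaling, when 7 were below 0), led by Kdr (-1.12 ± 0.20), Sox18 (-0.79 ± 0.20) and Emcn (-0.75 ± 0.20). The 8 smooth muscle and pericyte markers summed to 42233 and 28650, or to 3896 and 2344 without Acta2. What the bright Acta2 probe (38337 and 26306) hybridised to was not tested. All 8 were below 0 (median -0.71, or -0.31 with spike-in scaling, when 8 were below 0), led by Lmod1 (-0.99 ± 0.20), Kcnj8 (-0.91 ± 0.20) and Tagln (-0.81 ± 0.20). None of these 3 lists had a marker at background. The Col4 genes, the Col6 genes and Col15a1 were below 0 like the vessel lists. So were 23 of all 37 measured collagens, all 8 muscle fibre markers and 8825 of 15402 measured genes. With spike-in scaling Col6a3 and every Col4 gene except Col4a3 turned positive. Col18a1 and Col8a1 were above 0 under both scalings. The part of vessel cells in these values was not tested.

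The 6 measured macrophage markers were all above 0, with a summed signal of 150 in control muscle and 562 in denervated muscle (median 1.86, or 2.26 with spike-in scaling), led by Cd68 (3.53 ± 0.21), Fcgr1 (2.21 ± 0.21) and Itgam (1.94 ± 0.22). The 6 Schwann cell markers reported here summed to 1297 and 749, or to 375 and 433 without Pmp22 (median 0.29, or 0.69 with spike-in scaling). Of these 6, 1 was at least 2-fold higher and 2 lower, against 6.92% and 8.62% of all measured genes. Ngfr was at 2.47 ± 0.21 by the probe used and -0.16 by another. Pmp22 was at -1.55 ± 0.20, and Mbp at -1.38 ± 0.20 by the probe used, while its probes reached up to 1.87. The 8 muscle fibre markers summed to 349408 and 273682, all below 0 (median -0.31, or 0.09 with spike-in scaling, when 3 were below 0), led by Ckm (-0.72 ± 0.20), Acta1 (-0.53 ± 0.20) and Mb (-0.45 ± 0.20). Their part in the collagen values was not tested.

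**Figure D5:**
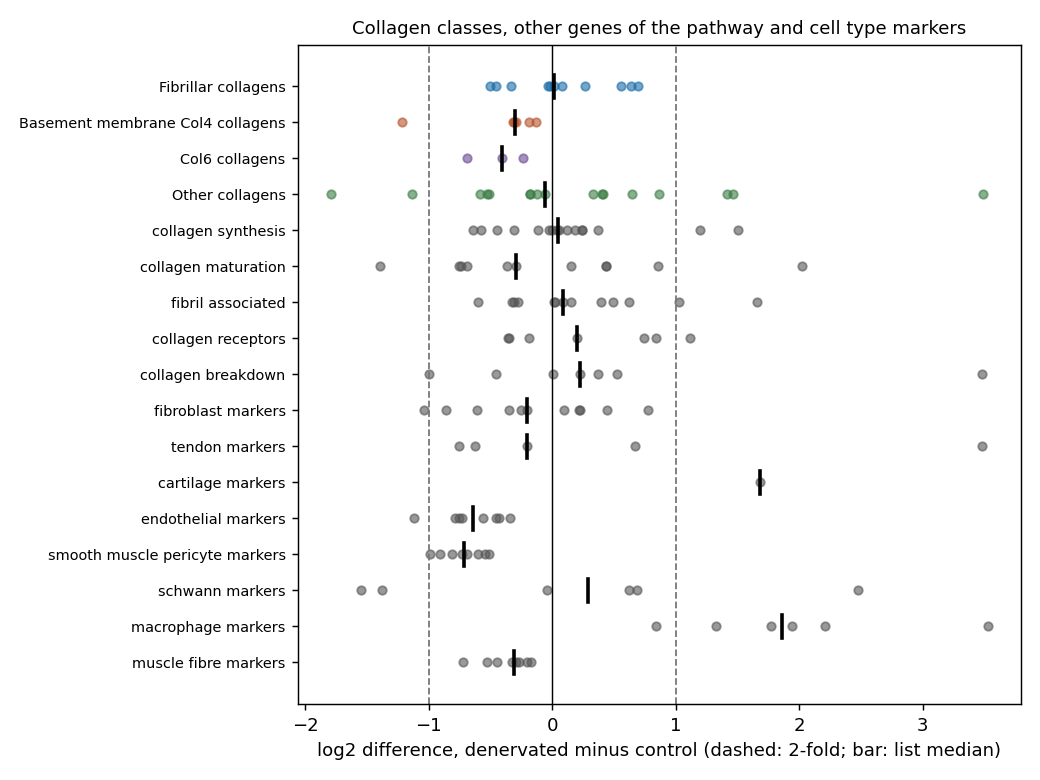
Log2 difference of each measured gene (points) and the list median (bar) for the 4 collagen classes, the other pathway lists and the cell type markers, with 2-fold as dashed lines. The Col4 and Col6 points lie left of 0 at this scaling, as do those of the endothelial, smooth muscle and muscle fibre lists, while the macrophage points lie right of it; with spike-in scaling most Col4 and muscle fibre points lie right of 0.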

How the data were processed

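Gastrocnemius RNA of 6 control and 6 denervated mice was pooled per group and hybridised to 1 array each. Groups came from the source label. Agilent Feature Extraction (9.5 in the submitters' processing notes, 9.5.3.1 per the file headers) gave the deposited spot intensity values, with background subtraction and detrending within the array and no scaling between arrays. The authors also deposited a table of whole-number values, treated here as a score; it is proportional to the intensity (coefficient of variation of the ratio 0.0679% and 0.0673%), so its scale is linear, and it served as an alternative. No sample column was left unused.

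Non-uniform and outlier spots were left out (87 and 81 spots), spots of a probe were averaged as log2 intensity, and each array's 75th percentile (788 and 1063) was subtracted. Well above background were 70.9% and 68.4% of probes, and 2 and 3 probes were saturated. A gene took its brightest probe (highest mean log2 intensity over both arrays) among its unsaturated probes that both arrays placed well above background. A gene above background on 1 array received a bound against the higher of the dim signal and the array's lowest detected signal. A dim signal could exceed that lowest signal, as for Col24a1, so the bounds are approximate. A fold of 2 was the call. Probe positions are those of mm8 in the files. Of 84 member probes, 62 had an accession in the RefSeq table of GRCm38.p6, and 61 kept their symbol. Every member is reported. Of each other list, the 3 genes with the largest differences are named, with defining markers at background on both arrays. Serpinh1, Matn3, Gsn, Mrc2, Thbs4 and genes of the pathway lists at background were added after their values were seen. The members and lists were chosen with earlier results of these data known. The scripts were tested on simulated data. The number of arrays limits the precision. Normexp used limma 3.58.1 (offset 50) under R 4.3.3; all else used Python 3.11.15 with pandas 2.3.3 and numpy 2.4.6. The 12 alternatives covered scaling, background, probe filters, probe choice, gene symbols and the deposited table. A gene of the marker lists is not reported here and was left out of its list's counts and sums.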

Additional observations from a re-analysis of the deposited data

How the results depend on the processing

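Each value was recomputed under 12 alternatives. The median over measured collagens (-0.13) became 0.26 with spike-in scaling and 0.30 without scaling, with 7 genes at least 2-fold higher under either, the added ones being Col3a1, Col5a2, Col8a1 and Col14a1; the median of all genes became 0.28 and 0.32, with 14.4% and 15.4% at least 2-fold higher. The count of lower genes (3) became 1 with quantile scaling, spike-in scaling, no scaling, normexp background and the stricter filter on dim probes (at least 4 times the lowest detected signal), leaving Col22a1 in each. Of all genes, 6.95%, 4.21%, 3.95%, 5.93% and 7.67% were at least 2-fold lower in that order. With no filter on dim probes the count was 5 of 40, against 11.8% of all genes. With spike-in scaling and with no scaling the class medians were 0.42 and 0.45 (fibrillar), 0.10 and 0.13 (Col4), -0.0075 and 0.0273 (Col6), and 0.34 and 0.37 (other types). The median of other types was also 0.19 with quantile scaling and 0.37 with the stricter filter, which kept 31 collagens. The fibrillar minus Col4 difference ran from 0.24 to 0.42. For single genes, 336 of 438 recomputed values moved by less than 0.20, the median technical error, and 102 moved more, 74 of these with spike-in scaling or no scaling. Under the 9 alternatives that do not shift every gene alike, where measured, the 2-fold side held for 34 of 37 genes and the sign for 25. Col22a1 was within 2-fold (-0.98) by its probe with the smallest difference. The causes were not tested. No paired analysis was possible because each group is 1 array. Signals near the lowest detected level (Col4a3, Col4a5, Col9a3, Col17a1, Col25a1, Col27a1) limit those genes most.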

Other observations

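Collagen genes that the array lists under older names were outside the naming rule and are found only through their RefSeq accession. Col26a1, listed as Emid2, was at 13.4 in control muscle and 20.9 in denervated muscle (0.64 ± 0.21). Col6a6, listed as E330026B02Rik, was at 4.25 in control muscle and was not well above background in denervated muscle at 2.18. Col4a3bp, which matches the naming rule but encodes no collagen, was at 1746 and 1126 (-0.63 ± 0.20), with its other measured probes at -0.25 and -0.08.

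Probes of 1 gene gave unlike values for some members. The Col24a1 probes stood at -0.02 and at a 19.6-fold higher signal in control muscle. The latter probe was not well above background in denervated muscle. The Col2a1 probes share 40 genome bases and stood at 0.26 and -0.53.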
